A study of Zea mays with 18 samples.

Results

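Cytokinin metabolism and two-component signalling genes were described across maize roots of 3 genotypes under 2 treatments. A gene was a member when its protein description in the deposited table named an isopentenyltransferase, a cytokinin enzyme or cytokinin-responsive factor, a cytokinin riboside phosphoribohydrolase, a zeatin O-glycosyltransferase, a two-component response regulator, a histidine-containing phosphotransfer protein or a probable histidine kinase. These terms matched 119 of 47334 genes, and 16 of them were left out as pseudo-response regulators of the circadian clock, which left 103 members. The descriptions carry names of related proteins of other species (ORR and LOGL names come from rice), so each maize gene is given with its ID and no maize gene name is assigned, and positions are those of the B73 genome of release 4. Members were sorted by role into 9 isopentenyltransferases (IPT), 3 cytokinin hydroxylases, 12 LOG phosphoribohydrolases, 18 cytokinin dehydrogenases (CKX), 6 zeatin O-glycosyltransferases, 14 histidine kinases (HK), 8 phosphotransfer proteins (HP), 15 type-B and 13 type-A response regulators and 5 others.

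The roots came from *zmnlp3.1*, *zmnrt1.1b* and wild-type (WT) seedlings, each given KNO3 or KCl, with 3 libraries in each of the 6 groups and 18 libraries in all. Both mutants carry CRISPR/Cas9 alleles, *zmnlp3.1* of a NIN-like transcription factor and *zmnrt1.1b* of a NO3- transporter, in the inbred ND101, while reads were aligned to the genome of the inbred B73. The sample labels call both mutants knockdowns, and the sequenced line of each is not stated. Seedlings of every group had grown for 10 days, were starved of N for 4 days and then received the salt at 5 mM for 2 h, so KCl is the control without NO3-.

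Cytokinins are hormones derived from adenine that move between root and shoot and that NO3- supply is known to raise in several plants. IPT adds the side chain to an adenine nucleotide, cytokinin hydroxylase turns the product into the trans-zeatin form, and LOG enzymes release the free active base. CKX cleaves the side chain and so breaks the hormone down, and O-glycosyltransferases attach a sugar that makes a storage form. The free base binds receptor histidine kinases, the signal passes through HP proteins to type-B response regulators in the nucleus, and these transcription factors switch on target genes. Among the targets are the type-A response regulators, which have no output domain and damp the signal, and which are widely used as a transcript readout of cytokinin. In maize leaves, induction of type-A regulators by cytokinin and by renewed NO3- supply is well known.

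Expression is given as FPKM (fragments per kilobase of gene, scaled to the size of the library), which allows levels of different genes to be compared per length. Between 16955904 and 19116969 reads per library stood behind these values. Of the 103 members, 59 had at least 1 FPKM in at least 3 of the 18 libraries and were tested among 26011 such genes. Another 31 had reads but stayed under this minimum, and 13 had no read in any library. The 44 untested members comprise 6 of the 9 IPT genes, 1 of the 3 hydroxylases, 3 of the 12 LOG genes, 9 of the 18 CKX genes, 3 of the 14 histidine kinases, 4 of the 8 HP genes, 8 of the 15 type-B regulators, 5 of the 13 type-A regulators and all 5 others, among them both genes described as cytokinin-responsive GATA factors, and none of the 44 exceeded 1.301 FPKM in a library. A member that passed the minimum only because of a group in which it is high had to differ between groups, and 2 tested members, Zm00001d035846 and Zm00001d053578, reached 1 FPKM in WT under KNO3 and in no other group. Counts are also given without this pair, a choice made after seeing the data.

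Libraries of a group correlated at 0.938 to 0.972 over the tested genes, with the lowest values for *zmnrt1.1b* KNO3 replicate 2 (0.938 and 0.943) and *zmnlp3.1* KCl replicate 4 (0.939 and 0.947). The 6 genes for Casparian strip membrane proteins, which mark the root endodermis, summed to 19.8 to 85.1 FPKM over all libraries. They were lowest in *zmnrt1.1b* under KNO3, at 19.8 to 43.8 FPKM, against 52.5 to 85.1 FPKM in WT under KNO3. The 36 genes for chlorophyll a-b binding proteins, a leaf marker, summed to 42.7 to 47.9 FPKM under KNO3 against 14 to 18.3 FPKM under KCl in *zmnlp3.1*, to 23.2 to 27.4 against 64.5 to 70.4 FPKM in *zmnrt1.1b*, and to 20.8 to 26.3 against 21.5 to 27.6 FPKM in WT, and 15 of them reached 1 FPKM in any library. The small subunit of Rubisco, also a leaf marker, stayed at 1.02 to 2.87 FPKM. The part of these markers in the results below was not tested. No table used here links ZmNRT1.1B or ZmNLP3.1 to an ID of the kind the deposited table uses, so the genotype labels were not checked on the mutated genes.

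In WT, NO3- raised both tested hydroxylases, 5 type-A regulators and a part of the tested CKX genes and histidine kinases, and fewer members were called higher under KNO3 in either mutant. Differences are given on the log2(FPKM + 0.1) scale with their standard error (SE) from limma, and a gene was called where its p-value, adjusted over all genes tested, was under 0.05. In WT, 15 of the 59 tested members (25.4%) were higher under KNO3 and 2 (3.39%) lower, against 6.43% and 6.42% of all genes tested. Without the 2 members that passed the minimum through WT under KNO3 alone, 14 of 57 (24.6%) were higher in WT. In *zmnlp3.1*, 7 members (11.9%) were higher and 6 (10.2%) lower, against 6.88% and 7.14% of all genes. In *zmnrt1.1b*, 2 members (3.39%) were higher and 4 (6.78%) lower, against 6.81% and 8.35% of all genes, so neither share was above the background. The median difference over the tested members was -0.05 in *zmnlp3.1*, 0.00 in *zmnrt1.1b* and 0.27 in WT, against medians over all genes of 0.01, -0.03 and 0.00. In whole roots, fewer cells of a type and less RNA per cell cannot be told apart. The lower members in WT numbered 1 without WT KCl replicate 2 or WT KNO3 replicate 4, and in *zmnlp3.1* 4 were higher and 2 lower without *zmnlp3.1* KNO3 replicate 4 and 3 were lower without *zmnlp3.1* KCl replicate 1. With only the groups compared in the fit, 2 were higher in *zmnlp3.1* (both HK1 genes below) and 2 lower (gene_Zm00001d032046 and gene_Zm00001d000237), and the lower members in *zmnrt1.1b* numbered 2 in 10 of the 18 leave-one-out fits, each of which dropped 1 library. Of the libraries least like their group, dropping *zmnrt1.1b* KNO3 replicate 2 gave 6 higher and 6 lower members in *zmnlp3.1*, 3 and 4 in *zmnrt1.1b* and 16 and 2 in WT, and dropping *zmnlp3.1* KCl replicate 4 gave 7 and 6, 2 and 6, and 16 and 3 in the same order.

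**Figure D1:**
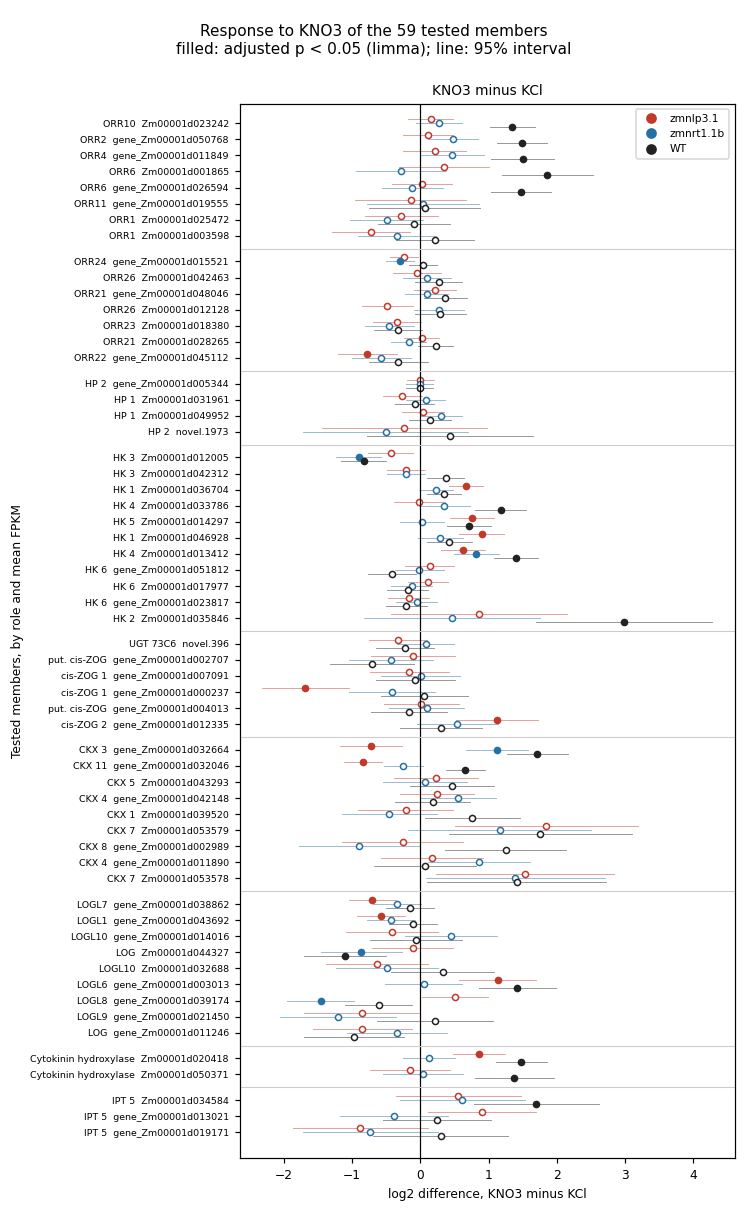
Response to KNO3 of the 59 tested members. Each row is a gene, grouped by role and ordered by mean FPKM, the x axis is the log2 difference KNO3 minus KCl, points are *zmnlp3.1*, *zmnrt1.1b* and WT, lines are 95% intervals, and filled points have an adjusted p under 0.05. The 5 uppermost type-A regulators have a filled point in WT, at 1.35 to 1.86, and an open point in both mutants.

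Among the type-A regulators, 5 of 8 tested genes rose in WT and none fell, against 6.43% and 6.42% of all genes. No type-A gene was called in the response of *zmnlp3.1* or of *zmnrt1.1b* by limma, where an unadjusted p under 0.05 was found for 1 gene and 2 genes, and voom on the recovered reads called none either. Summed over all 13 type-A members, the FPKM values were 289 to 344 under KNO3 against 272 to 316 under KCl in *zmnlp3.1*, 197 to 236 against 148 to 206 in *zmnrt1.1b*, and 478 to 574 against 173 to 233 in WT. The summed ranges overlapped between treatments in both mutants, and in WT every KNO3 library was far above every KCl library.

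The ORR10 gene Zm00001d023242 (chromosome 10, 1292263 to 1294372) had the highest level of all members. In *zmnlp3.1* it had 196, 197 and 178 FPKM under KNO3, against 151, 162 and 206 FPKM under KCl. In *zmnrt1.1b* it had 84.4, 87.8 and 90.1 FPKM under KNO3 and 87.02, 59.4 and 72.9 FPKM under KCl. In WT it had 230.3, 246 and 265 FPKM under KNO3 and 109.9, 107 and 76.9 FPKM under KCl. The treatments did not overlap in WT and did in both mutants, and the *zmnlp3.1* libraries under KCl all lay above those of WT under KCl. The response was 0.15 ± 0.16 (SE, adjusted p = 0.56) in *zmnlp3.1*, 0.28 ± 0.16 (SE, adjusted p = 0.26) in *zmnrt1.1b* and 1.35 ± 0.16 (SE, adjusted p = 2.9e-05) in WT. Under KCl, *zmnlp3.1* was higher than WT by 0.83 ± 0.16 (SE, adjusted p = 0.0042), the only called difference of a type-A gene under KCl in either mutant, and it was not called with only the groups compared in the fit. The level in *zmnlp3.1* under KNO3 was not called against WT (log2 difference -0.37, adjusted p = 0.083), and that of *zmnrt1.1b* was, at -1.49 ± 0.16 (SE, adjusted p = 2.3e-05).

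The ORR2 gene gene_Zm00001d050768 (chromosome 4, 121766673 to 121769040) and the ORR4 gene gene_Zm00001d011849 (chromosome 8, 162775996 to 162782061) were higher in each WT library under KNO3 than in any other library. For the ORR2 gene, KNO3 libraries of *zmnlp3.1* had 65.9, 97.6 and 72.7 FPKM, those of *zmnrt1.1b* 78.5, 96.02 and 115 FPKM and those of WT 167, 207 and 219 FPKM. Under KCl the same gene had 74.03, 68.96 and 71.9 FPKM in *zmnlp3.1*, 81.4, 64.4 and 61.6 in *zmnrt1.1b* and 81.9, 65.2 and 63.8 in WT. Only in WT did the treatments not overlap, with a response of 1.49 ± 0.17 (SE, adjusted p = 2.6e-05), against 0.12 in *zmnlp3.1* and 0.47 in *zmnrt1.1b* (adjusted p = 0.7 and 0.074). For the ORR4 gene, *zmnlp3.1* had 17.2, 17.9 and 12.96 FPKM under KNO3 and 18.8, 14.6 and 9.35 FPKM under KCl. In *zmnrt1.1b* these values were 16.8, 10.5 and 12.5 FPKM under KNO3 and 11.2, 8.54 and 8.71 FPKM under KCl. In WT they were 33.8, 37.1 and 38.9 FPKM under KNO3 and 13.6, 13.05 and 11.97 FPKM under KCl. The WT response was 1.50 ± 0.22 (SE, adjusted p = 0.00019), and neither mutant's was called (0.21 in *zmnlp3.1*, adjusted p = 0.56, and 0.47 in *zmnrt1.1b*, adjusted p = 0.16).

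Both genes described as ORR6 also rose in WT. Zm00001d001865 (chromosome 2, 2078887 to 2079669) had 13.2, 13.3 and 9.81 FPKM under KNO3 and 11.7, 9.83 and 7.24 FPKM under KCl in *zmnlp3.1*. The *zmnrt1.1b* libraries had 7.37, 3.61 and 4.65 FPKM under KNO3 and 9.94, 3.58 and 6.38 FPKM under KCl. WT libraries had 16.2, 22.02 and 22.3 FPKM under KNO3 and 6.597, 5.16 and 4.65 FPKM under KCl, the largest response of a type-A gene at 1.86 ± 0.31 (SE, adjusted p = 0.00073). Under KNO3 the 3 libraries of *zmnlp3.1* lay below those of WT, yet the difference was not called (-0.73, adjusted p = 0.085), and that of *zmnrt1.1b* was, at -1.98 ± 0.31 (SE, adjusted p = 0.0005). gene_Zm00001d026594 (chromosome 10, 148669998 to 148671302) had 6.94, 9.84 and 8.47 FPKM in *zmnlp3.1*, 4.99, 5.67 and 4.62 FPKM in *zmnrt1.1b*, against 19.7, 17.1 and 18.6 FPKM in WT under KNO3. Under KCl it had 7.597, 7.31 and 9.99 FPKM in *zmnlp3.1*, 6.47, 3.84 and 6.73 FPKM in *zmnrt1.1b*, against 8.295, 6.304 and 5.402 FPKM in WT. It responded by 1.48 ± 0.21 (SE, adjusted p = 0.00016) in WT and was lower than WT under KNO3 in *zmnlp3.1* with a log2 difference of -1.14 ± 0.21 (SE, adjusted p = 0.0009) and in *zmnrt1.1b* with a log2 difference of -1.84 ± 0.21 (SE, adjusted p = 3.7e-05). The 3 remaining tested type-A genes, 1 described as ORR11 and a pair as ORR1, stayed at 0.905 to 5.27 FPKM and were called in no response. Of these, the ORR1 gene Zm00001d003598 was lower than WT under KNO3 in *zmnlp3.1* (-0.92 ± 0.27 SE, adjusted p = 0.017), a call lost without WT KNO3 replicate 3 or 4 or *zmnlp3.1* KNO3 replicate 2 or 4.

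**Figure D2:**
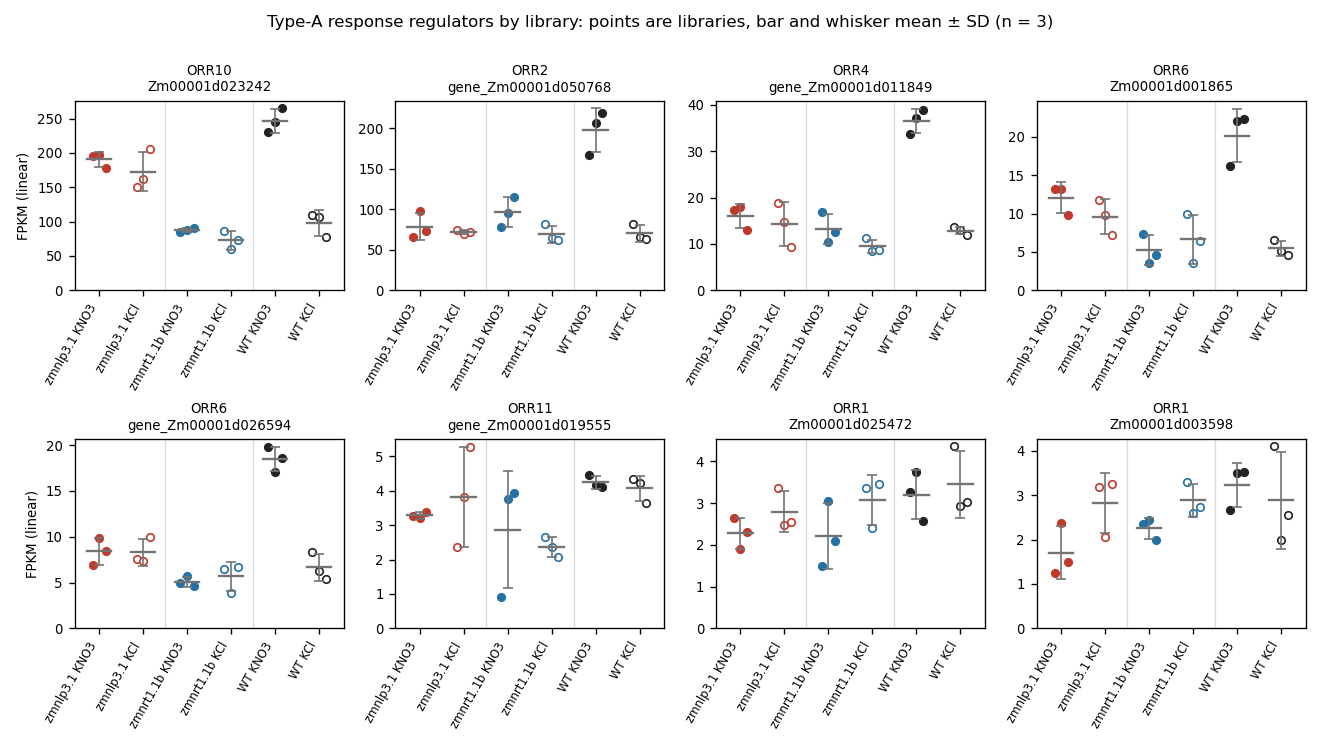
FPKM of the 8 tested type-A regulators in each library (y axis, linear, 1 panel a gene). Filled points are KNO3 and open points KCl, groups run from *zmnlp3.1* to *zmnrt1.1b* to WT, and bars with whiskers are the mean ± SD of 3 libraries. In the first 5 panels the 3 WT KNO3 libraries lie above every WT KCl library, as for ORR4 with 36.6 against 12.9 FPKM on average, and the last 3 panels show no such gap.

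The response itself was compared between genotypes as an interaction, the response in a mutant minus that in WT, and a smaller response means a lower value of KNO3 minus KCl, falls included. Over all members, 9 of 59 (15.3%) had a smaller response in *zmnlp3.1* and none a larger one, against 2.68% smaller and 2.21% larger over all genes. In *zmnrt1.1b*, 6 members (10.2%) had a smaller response and none a larger one, against 0.969% and 0.542% over all genes. Voom called 10 smaller responses in *zmnlp3.1* and 4 in *zmnrt1.1b* and no larger one. Of all 26011 genes, voom called 641 smaller and 804 larger in *zmnlp3.1* and 222 and 185 in *zmnrt1.1b*. By limma, 22 and 20 members had an unadjusted p under 0.05 in either direction. Type-A regulators supplied 4 of the members in each mutant. In *zmnlp3.1* they were Zm00001d023242 at -1.2 ± 0.22 (SE, adjusted p = 0.0075), gene_Zm00001d050768 at -1.37 ± 0.24 (SE, adjusted p = 0.0062), gene_Zm00001d026594 at -1.46 ± 0.30 (SE, adjusted p = 0.012) and gene_Zm00001d011849 at -1.29 ± 0.31 (SE, adjusted p = 0.025), the last of which was lost in 5 of the 18 leave-one-out fits. In *zmnrt1.1b* they were gene_Zm00001d026594 at -1.59 ± 0.30 (SE, adjusted p = 0.016), Zm00001d001865 at -2.15 ± 0.44 (SE, adjusted p = 0.026), Zm00001d023242 at -1.07 ± 0.22 (SE, adjusted p = 0.028) and gene_Zm00001d050768 at -1.02 ± 0.24 (SE, adjusted p = 0.048). Their calls were lost in 1 (gene_Zm00001d026594, without *zmnrt1.1b* KCl replicate 2), 6 (Zm00001d001865), 6 (Zm00001d023242) and 13 (gene_Zm00001d050768) of those 18 fits, and the last also with voom, with a minimum of 0.1 FPKM and with none. The count in *zmnrt1.1b* was 1 without *zmnrt1.1b* KCl replicate 2, 2 without WT KCl replicate 3, WT KNO3 replicate 1, WT KNO3 replicate 3, *zmnrt1.1b* KCl replicate 4 or *zmnrt1.1b* KNO3 replicate 4, and 8 at most, while in *zmnlp3.1* it ran from 6 to 12 (11 without *zmnrt1.1b* KNO3 replicate 2 and 12 without *zmnlp3.1* KCl replicate 4), with 1 larger response without *zmnrt1.1b* KNO3 replicate 2 or *zmnlp3.1* KCl replicate 1. Both interactions use the same WT libraries. Between the mutants, *zmnlp3.1* minus *zmnrt1.1b*, 1 member had a larger and 1 a smaller response (1.69% each), against 1.38% and 0.411% of all genes, and neither was a type-A gene. A further member had a larger response, 2 in all, without *zmnlp3.1* KNO3 replicate 3.

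At the first step of synthesis, 3 IPT genes were tested, all described as adenylate isopentenyltransferase 5 and all weakly expressed. Zm00001d034584 (chromosome 1, 297077046 to 297078035) was the highest of them. It had 3.64, 3.48 and 2.46 FPKM under KNO3 and 2.35, 2.08 and 1.91 FPKM under KCl in *zmnlp3.1*. Values in *zmnrt1.1b* were 4.31, 2.24 and 0.725 FPKM under KNO3 and 1.31, 1.45 and 0.986 FPKM under KCl. The values in WT were 6.198, 4.45 and 5.08 FPKM under KNO3 and 2.42, 1.45 and 1.002 FPKM under KCl. The treatments did not overlap in *zmnlp3.1* and WT and did in *zmnrt1.1b*, where the KNO3 libraries were widely spread. Only the WT response was called, at 1.70 ± 0.43 (SE, adjusted p = 0.015), and this call was lost without WT KCl replicate 3 or without WT KNO3 replicate 1. Under KNO3 it was lower in *zmnrt1.1b* than in WT with a log2 difference of -1.38 ± 0.43 (SE, adjusted p = 0.039), lost in 5 of the 18 leave-one-out fits, with no minimum and with only the groups compared in the fit. The interactions were not called (-1.14 in *zmnlp3.1*, adjusted p = 0.3, and -1.09 in *zmnrt1.1b*, adjusted p = 0.38). The other tested IPT genes, gene_Zm00001d013021 and gene_Zm00001d019171, were at 0.172 to 3.29 FPKM and were called in no comparison, and the gene described as IPT3, gene_Zm00001d003869, had no read.

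Both tested cytokinin hydroxylases rose in WT, and neither rose in *zmnrt1.1b*, against 6.43% and 6.81% of all genes. Zm00001d020418 (chromosome 7, 112714260 to 112717015) had 10.03, 15.01 and 12.1 FPKM under KNO3 and 6.02, 5.79 and 8.49 FPKM under KCl in *zmnlp3.1*. Roots of *zmnrt1.1b* had 2.82, 3.55 and 3.18 FPKM under KNO3 and 2.69, 3.51 and 2.59 FPKM under KCl. WT roots had 13.96, 11.7 and 13.9 FPKM under KNO3 and 4.77, 5.04 and 4.16 FPKM under KCl. The treatments were apart in *zmnlp3.1* and in WT and overlapped in *zmnrt1.1b*. It responded by 0.86 ± 0.18 (SE, adjusted p = 0.0054) in *zmnlp3.1* and by 1.48 ± 0.18 (SE, adjusted p = 3.8e-05) in WT, against 0.12 in *zmnrt1.1b* (adjusted p = 0.68). The call of the response in *zmnlp3.1* was lost with only the groups compared. The interaction was -1.36 ± 0.25 (SE, adjusted p = 0.016) in *zmnrt1.1b*, lost with voom and without WT KNO3 replicate 1, and -0.62 in *zmnlp3.1* (adjusted p = 0.17). Under KNO3 *zmnrt1.1b* was lower than WT with a log2 difference of -2.02 ± 0.18 (SE, adjusted p = 4.7e-06), and *zmnlp3.1* was not called (-0.11, 95% interval -0.48 to 0.27). The other hydroxylase, Zm00001d050371 (chromosome 4, 84598981 to 84600903), had 1.68, 2.31 and 2.104 FPKM in *zmnlp3.1*, 0.731, 1.36 and 1.22 FPKM in *zmnrt1.1b*, against 6.24, 4.03 and 8.07 FPKM in WT under KNO3. Its KCl values were 1.79, 2.13 and 2.99 FPKM in *zmnlp3.1*, 1.11, 1.196 and 0.846 FPKM in *zmnrt1.1b*, against 2.45, 2.24 and 1.93 FPKM in WT. It rose by 1.38 ± 0.28 (SE, adjusted p = 0.0029) in WT, and in neither mutant was the response called (-0.15 in *zmnlp3.1* and 0.04 in *zmnrt1.1b*). Its smaller response in *zmnlp3.1* (-1.53 ± 0.39 SE, adjusted p = 0.034) was lost in 9 of the 18 leave-one-out fits and with no minimum. Under KCl, too, every *zmnrt1.1b* library of both tested hydroxylases lay below every WT library. Of the 2 genes, 1 was called lower than WT, against 1.85% of all genes. This call was lost without WT KCl replicate 2 or WT KCl replicate 3. The last hydroxylase, Zm00001d005729, reached at most 0.399 FPKM.

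The LOG genes moved in both directions. The highest of the 9 tested, the LOGL7 gene gene_Zm00001d038862 (chromosome 6, 166027177 to 166029976), was not called in the response of WT and was lower in both mutants than in WT. Under KNO3 it had 42.1, 45.7 and 36.8 FPKM in *zmnlp3.1*, 48.6, 58.3 and 59.9 FPKM in *zmnrt1.1b*, against 90.1, 96.7 and 94.6 FPKM in WT. KCl libraries had 82.3, 72.5 and 51.3 FPKM in *zmnlp3.1*, 86.6, 66.1 and 60.3 FPKM in *zmnrt1.1b*, against 114, 103 and 95.8 FPKM in WT. Every mutant library lay below every WT library of the same treatment. The differences from WT were -1.18 ± 0.16 (SE, adjusted p = 0.00011) in *zmnlp3.1* and -0.76 ± 0.16 (SE, adjusted p = 0.005) in *zmnrt1.1b* under KNO3. Under KCl they were -0.62 ± 0.16 (SE, adjusted p = 0.026) in *zmnlp3.1* and -0.57 in *zmnrt1.1b* (adjusted p = 0.07). The difference under KCl in *zmnlp3.1* was lost without *zmnlp3.1* KCl replicate 4, WT KCl replicate 1 or WT KCl replicate 2, and with only the groups compared. NO3- lowered the gene in *zmnlp3.1* (-0.70 ± 0.16 SE, adjusted p = 0.011), and likewise the LOGL1 gene gene_Zm00001d043692 (-0.58 ± 0.16 SE, adjusted p = 0.029), calls lost without *zmnlp3.1* KCl replicate 1 or *zmnlp3.1* KNO3 replicate 4 and, for LOGL1, also without *zmnlp3.1* KCl replicate 3 or KNO3 replicate 3. Both of these calls were also lost with only the groups compared.

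The LOGL6 gene gene_Zm00001d003013 (chromosome 2, 29406645 to 29411158) was the LOG gene that rose in WT. It had 2.25, 3.11 and 3.66 FPKM under KNO3 and 0.946, 1.11 and 2.01 FPKM under KCl in *zmnlp3.1*. For *zmnrt1.1b* the values were 1.34, 2.197 and 1.35 FPKM under KNO3 and 1.68, 1.18 and 1.79 FPKM under KCl. For WT the values were 6.45, 5.898 and 6.23 FPKM under KNO3 and 2.15, 2.53 and 2.099 FPKM under KCl. It rose by 1.14 ± 0.27 (SE, adjusted p = 0.011) in *zmnlp3.1* and by 1.42 ± 0.27 (SE, adjusted p = 0.0019) in WT and did not move in *zmnrt1.1b* beyond the spread (0.05, adjusted p = 0.92). The call in *zmnlp3.1* was lost without *zmnlp3.1* KCl replicate 1 or *zmnlp3.1* KNO3 replicate 4 and with only the groups compared. The interaction in *zmnrt1.1b* was not called (-1.37, adjusted p = 0.08). Under KNO3 every library of both mutants lay below every WT library.

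Other LOG genes fell or diverged between the mutants. Zm00001d044327 (chromosome 3, 225304006 to 225308415), described as LOG, had 10.1, 8.21 and 6.83 FPKM under KNO3 and 17.98, 21.96 and 14.6 FPKM under KCl in WT, a log2 difference of -1.11 ± 0.28 (SE, adjusted p = 0.015) that was lost without WT KCl replicate 2 or WT KNO3 replicate 4. In *zmnrt1.1b* it also fell (-0.87 ± 0.28 SE, adjusted p = 0.049), a call lost in 14 of the 18 leave-one-out fits, with a minimum of 0.1 FPKM and with none, and in *zmnlp3.1* it was -0.11 (adjusted p = 0.83). The *zmnlp3.1* libraries had 9.28, 11.3 and 6.15 FPKM under KNO3 and 12.8, 11.4 and 5.60 FPKM under KCl. Under KCl they all lay below those of WT. The LOGL8 gene gene_Zm00001d039174 (chromosome 6, 171784068 to 171787645) gave 1 of the 2 responses that differed between the mutants. It had 2.66, 2.28 and 1.903 FPKM under KNO3 and 2.01, 1.59 and 1.18 FPKM under KCl in *zmnlp3.1*. In *zmnrt1.1b* it had 1.304, 1.31 and 0.871 FPKM under KNO3 and 4.33, 2.67 and 3.17 FPKM under KCl. In WT it had 3.38, 2.39 and 2.75 FPKM under KNO3 and 4.35, 4.29 and 4.39 FPKM under KCl. It fell in *zmnrt1.1b* with a log2 difference of -1.46 ± 0.23 (SE, adjusted p = 0.00086) and was not called in *zmnlp3.1* (0.51, adjusted p = 0.16) or WT (-0.61, adjusted p = 0.1). The response in *zmnlp3.1* minus that in *zmnrt1.1b* was 1.97 ± 0.33 (SE, adjusted p = 0.0053). It was also lower than WT in *zmnlp3.1* under KCl (-1.42 ± 0.23 SE, adjusted p = 0.0016) and in *zmnrt1.1b* under KNO3 (-1.23 ± 0.23 SE, adjusted p = 0.0019). Under KNO3 the LOGL10 gene Zm00001d032688 had 3.903, 7.54 and 6.46 FPKM in *zmnlp3.1*, 4.77, 9.92 and 6.64 FPKM in *zmnrt1.1b*, against 15.8, 14.4 and 16.1 FPKM in WT, with mutant libraries below all WT libraries and differences of -1.41 ± 0.35 (SE, adjusted p = 0.0072) in *zmnlp3.1* and -1.17 ± 0.35 (SE, adjusted p = 0.032) in *zmnrt1.1b*, where the call was lost in 5 of the 18 leave-one-out fits and with no minimum. A further gene described as LOG, gene_Zm00001d011246, was lower in *zmnlp3.1* than in WT with a log2 difference of -1.07 ± 0.34 (SE, adjusted p = 0.028) under KNO3 and -1.19 ± 0.34 (SE, adjusted p = 0.041) under KCl, at 0.339 to 2.48 FPKM over these groups. These calls were lost without WT KNO3 replicate 1, WT KNO3 replicate 3 or *zmnlp3.1* KNO3 replicate 2 and with voom under KNO3, in 8 of the 18 fits and with no minimum under KCl, and in both treatments with only the groups compared.

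Most tested CKX genes, whose products break cytokinin down, were lower in each mutant than in WT under KNO3. Of 9 tested CKX genes, 6 were lower in *zmnlp3.1* and 7 in *zmnrt1.1b* than in WT under KNO3, against 16.7% and 9.66% of all genes, and none was higher. Without Zm00001d053578, which passed the minimum through WT under KNO3 alone, these were 5 of 8 and 6 of 8. In the WT response, limma called 2 of the 9 higher and voom 5, and neither called any lower. Of all 26011 genes, limma called 1673 higher in WT and voom 1508. The voom count was not taken without Zm00001d053578. Summed over all 18 members, the values under KNO3 were 25.7 to 37.6 FPKM in *zmnlp3.1*, 27.5 to 33.1 FPKM in *zmnrt1.1b* and 73.5 to 79.4 FPKM in WT, and those under KCl were 31.7 to 40.7, 20.6 to 25.2 and 31.7 to 40.6 FPKM in the same order of genotypes. Much of the sum was the CKX3 gene gene_Zm00001d032664 (chromosome 1, 233548082 to 233551762). In *zmnlp3.1* it had 6.11, 12.1 and 8.53 FPKM under KNO3 and 13.1, 11.7 and 18.7 FPKM under KCl. The *zmnrt1.1b* libraries had 14.9, 13.4 and 10.4 FPKM under KNO3 and 5.97, 5.52 and 5.998 FPKM under KCl. WT libraries had 34.8, 34.9 and 36.9 FPKM under KNO3 and 9.67, 12.8 and 10.01 FPKM under KCl. The treatments were apart in *zmnrt1.1b* and WT, with KNO3 higher, and in *zmnlp3.1* they overlapped, the highest KNO3 library lying above the lowest KCl library. The response was -0.72 ± 0.21 (SE, adjusted p = 0.035) in *zmnlp3.1*, 1.12 ± 0.21 (SE, adjusted p = 0.0032) in *zmnrt1.1b* and 1.72 ± 0.21 (SE, adjusted p = 5.1e-05) in WT, and the fall in *zmnlp3.1* was lost without *zmnlp3.1* KCl replicate 1 or 4 or *zmnlp3.1* KNO3 replicate 2 or 4, with no minimum and with only the groups compared. The response in *zmnlp3.1* minus that in *zmnrt1.1b* was -1.84 ± 0.30 (SE, adjusted p = 0.0051), the other response that differed between the mutants, and under KCl the gene was lower than WT in *zmnrt1.1b* (-0.87 ± 0.21 SE, adjusted p = 0.032, lost in 6 of the 18 leave-one-out fits).

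The CKX11 gene gene_Zm00001d032046 (chromosome 1, 210548810 to 210553536) moved in opposite directions in *zmnlp3.1* and WT. It had 2.98, 3.81 and 3.36 FPKM under KNO3 and 6.2, 6.34 and 5.78 FPKM under KCl in *zmnlp3.1*. Values in *zmnrt1.1b* were 7.15, 5.71 and 6.64 FPKM under KNO3 and 8.34, 6.64 and 8.29 FPKM under KCl. The values in WT were 10.9, 12.1 and 10.7 FPKM under KNO3 and 7.88, 6.99 and 6.39 FPKM under KCl. The KNO3 libraries lay below all KCl libraries in *zmnlp3.1* and above them in WT, and the 2 treatments overlapped in *zmnrt1.1b*. The response was -0.84 ± 0.13 (SE, adjusted p = 0.00096) in *zmnlp3.1*, -0.25 in *zmnrt1.1b* (adjusted p = 0.22) and 0.66 ± 0.13 (SE, adjusted p = 0.0031) in WT. Under KNO3 the difference from WT was -1.71 ± 0.13 (SE, adjusted p = 6.6e-07) in *zmnlp3.1* and -0.79 ± 0.13 (SE, adjusted p = 0.00085) in *zmnrt1.1b*, and under KCl neither mutant was called (-0.21 in *zmnlp3.1* and 0.13 in *zmnrt1.1b*). The response was smaller than in WT with a log2 difference of -1.50 ± 0.19 (SE, adjusted p = 0.00056) in *zmnlp3.1* and with a log2 difference of -0.91 ± 0.19 (SE, adjusted p = 0.027) in *zmnrt1.1b*, the second call being lost in 7 of the 18 leave-one-out fits.

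Both genes described as CKX7 lie on chromosome 4, at 235221490 to 235224289 (Zm00001d053579) and 235114056 to 235116023 (Zm00001d053578), and how reads that fit both genes were counted is not given in the sources used here. Zm00001d053579 had 1.41, 1.39 and 0.856 FPKM in *zmnlp3.1*, 1.69, 0.448 and 0.929 FPKM in *zmnrt1.1b*, against 5.89, 9.21 and 7.74 FPKM in WT under KNO3. With KCl the values were 0.436, 0.767 and 0 FPKM in *zmnlp3.1*, 0.380, 0.540 and 0.193 FPKM in *zmnrt1.1b*, against 1.29, 2.199 and 3.45 FPKM in WT. Each mutant library lay below each WT library under KNO3, and under KCl as well. The differences from WT under KNO3 were -2.55 ± 0.63 (SE, adjusted p = 0.0065) in *zmnlp3.1* and -2.92 ± 0.63 (SE, adjusted p = 0.005) in *zmnrt1.1b*. Under KCl *zmnlp3.1* was lower with a log2 difference of -2.64 ± 0.63 (SE, adjusted p = 0.015), lost without WT KCl replicate 3 or *zmnlp3.1* KCl replicate 4 and with only the groups compared. Its responses were not called in any genotype (1.85 in *zmnlp3.1*, 1.16 in *zmnrt1.1b* and 1.76 in WT, adjusted p = 0.063, 0.23 and 0.084). Still, every KNO3 library lay above every KCl library in *zmnlp3.1* and WT, and the treatments overlapped in *zmnrt1.1b*. Zm00001d053578 averaged 0.485 ± 0.250 FPKM in *zmnlp3.1*, 0.599 ± 0.306 FPKM in *zmnrt1.1b*, against 2.25 ± 0.199 FPKM in WT under KNO3 (SD, n = 3 each). It was lower than WT with a log2 difference of -2.12 ± 0.62 (SE, adjusted p = 0.017) in *zmnlp3.1*, a call lost without *zmnlp3.1* KNO3 replicate 4, and with a log2 difference of -1.86 ± 0.62 (SE, adjusted p = 0.048) in *zmnrt1.1b*, a call lost in 10 of the 15 leave-one-out fits that tested it, with no minimum and with the replicate block. As this gene passed the minimum through WT under KNO3 alone, these differences are a description.

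Of the remaining CKX genes, the CKX5 gene Zm00001d043293 was low in *zmnrt1.1b* in both treatments. It had 7.34, 12.8 and 9.01 FPKM in *zmnlp3.1*, 2.46, 4.18 and 2.61 FPKM in *zmnrt1.1b*, against 9.14, 7.54 and 9.64 FPKM in WT under KNO3. Of the mutants *zmnrt1.1b* was called against WT, with a log2 difference of -1.51 ± 0.29 (SE, adjusted p = 0.0023) under KNO3 and -1.12 ± 0.29 (SE, adjusted p = 0.043) under KCl, the KCl call being lost in 10 of the 18 leave-one-out fits, with no minimum, with voom and with only the groups compared, and *zmnlp3.1* differed by 0.11 and 0.34. The CKX1 gene Zm00001d039520 had 1.45, 1.104 and 0.716 FPKM in *zmnlp3.1*, 2.51, 1.5 and 1.83 FPKM in *zmnrt1.1b*, against 4.45, 4.55 and 3.45 FPKM in WT under KNO3, and its differences from WT were -1.87 ± 0.33 (SE, adjusted p = 0.00065) and -1.07 ± 0.33 (SE, adjusted p = 0.034) in the mutants in this order. The CKX8 gene gene_Zm00001d002989 was lower under KNO3 with a log2 difference of -1.21 ± 0.42 (SE, adjusted p = 0.037) in *zmnlp3.1* and -1.65 ± 0.42 (SE, adjusted p = 0.013) in *zmnrt1.1b*, at 0.461 to 3.34 FPKM under KNO3. For CKX1 the call in *zmnrt1.1b* was lost without WT KNO3 replicate 1 or 3 or *zmnrt1.1b* KNO3 replicate 4 or 5 and with no minimum. For CKX8 it was lost without WT KNO3 replicate 4 in *zmnrt1.1b*, and without WT KNO3 replicate 1 or 4 or *zmnlp3.1* KNO3 replicate 2 or 4, with no minimum and with only the groups compared in *zmnlp3.1*. Both tested genes described as CKX4 were called in no comparison, and gene_Zm00001d042148 overlaps Zm00001d042147 of the same description on the other strand, where reads cannot be told apart because the strand setting of the counting is not given in the sources used here.

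**Figure D3:**
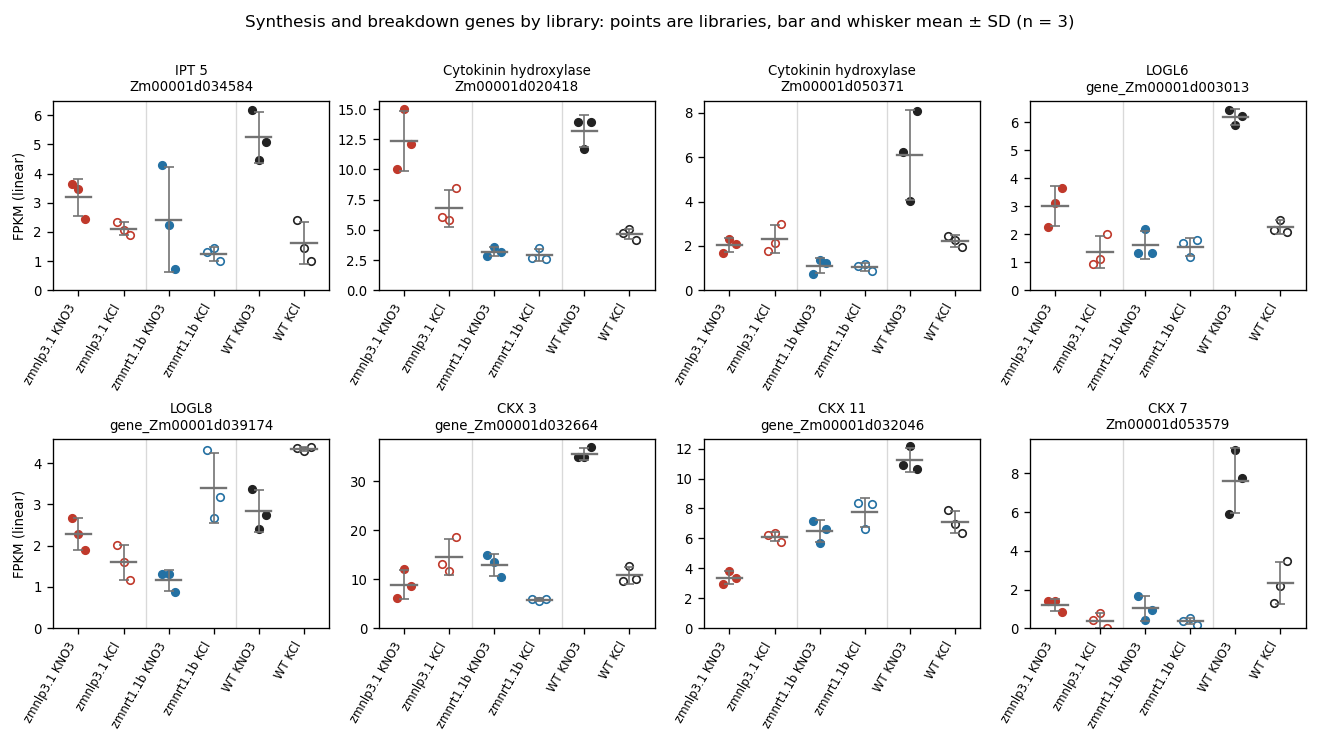
FPKM of 8 metabolism genes in each library (y axis, linear, 1 panel a gene). Filled points are KNO3 and open points KCl, groups run from *zmnlp3.1* to *zmnrt1.1b* to WT, and bars with whiskers are the mean ± SD of 3 libraries. For the CKX3 gene the WT KNO3 libraries average 35.5 FPKM, above every other library, and for the first hydroxylase *zmnlp3.1* under KNO3 reaches the WT level while *zmnrt1.1b* does not.

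Among the 6 O-glycosyltransferases, no gene responded to NO3- in *zmnrt1.1b* or in WT by limma, where 0 and 1 had an unadjusted p under 0.05, or by voom. Of all genes, 6.81% were higher and 8.35% lower in *zmnrt1.1b* and 6.43% and 6.42% in WT, so few calls would be expected among 6 genes. Some of the 6 differed between genotypes. gene_Zm00001d002707 (chromosome 2, 19851191 to 19852588), a putative cis-zeatin O-glucosyltransferase, had 3.65, 11.1 and 5.18 FPKM in *zmnlp3.1*, 11.5, 7.86 and 7.34 FPKM in *zmnrt1.1b*, against 2.398, 1.62 and 1.8 FPKM in WT under KNO3. Under KCl it had 6.87, 6.94 and 5.55 FPKM in *zmnlp3.1*, 11.1, 11.1 and 13.1 FPKM in *zmnrt1.1b*, against 2.97, 3.76 and 2.92 FPKM in WT. All libraries of both mutants lay above all WT libraries of the same treatment. It was higher in *zmnlp3.1* by 1.59 ± 0.29 (SE, adjusted p = 0.00092) under KNO3 and by 0.98 ± 0.29 (SE, adjusted p = 0.044) under KCl, the KCl call being lost in 12 of the 18 leave-one-out fits, with a minimum of 0.1 FPKM and with none, and higher in *zmnrt1.1b* by 2.13 ± 0.29 (SE, adjusted p = 0.00017) under KNO3 and 1.85 ± 0.29 (SE, adjusted p = 0.0019) under KCl. A gene on chromosome 1 that the authors' assembly added, described as UDP-glycosyltransferase 73C6 and zeatin O-glucosyltransferase 2, was also higher in *zmnrt1.1b*, with 18.6, 19.4 and 17.03 FPKM against 9.18, 7.93 and 8.596 FPKM in WT under KNO3, a difference of 1.09 ± 0.20 (SE, adjusted p = 0.0015). Under KCl its difference was 0.78 ± 0.20 (SE, adjusted p = 0.037), lost without WT KCl replicate 1 or any of the *zmnrt1.1b* KCl libraries, with no minimum and with only the groups compared, and in *zmnlp3.1* it was 0.45 under KNO3 and 0.55 under KCl (adjusted p = 0.097 and 0.095).

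A pair of cis-zeatin O-glucosyltransferases responded in *zmnlp3.1* alone among the calls, in opposite directions. gene_Zm00001d000237, on a contig not placed on a chromosome, had 1.08, 0.893 and 0.610 FPKM under KNO3 and 3.33, 2.95 and 2.55 FPKM under KCl in *zmnlp3.1*, a log2 difference of -1.69 ± 0.30 (SE, adjusted p = 0.0021). WT roots had 4.17, 3.37 and 3.08 FPKM under KNO3 and 2.59, 5.96 and 2.47 FPKM under KCl (0.06, adjusted p = 0.94). The interaction in *zmnlp3.1* was -1.74 ± 0.42 (SE, adjusted p = 0.028), lost in 7 of the 18 leave-one-out fits and with a pseudocount of 1 FPKM. gene_Zm00001d012335 (chromosome 8, 172652749 to 172654298) had 0.798, 0.649 and 0.749 FPKM under KNO3 and 0.244, 0.280 and 0.321 FPKM under KCl in *zmnlp3.1*, where it rose by 1.13 ± 0.28 (SE, adjusted p = 0.016), with 7 to 33 reads a library over the series, a call lost without *zmnlp3.1* KCl replicate 1 or *zmnlp3.1* KNO3 replicate 4 and with only the groups compared. WT had 0.953, 1.06 and 0.922 FPKM under KNO3 and 0.756, 0.786 and 0.782 FPKM under KCl, which did not overlap either (0.30, adjusted p = 0.58). Under KCl *zmnlp3.1* was lower than WT with a log2 difference of -1.2 ± 0.28 (SE, adjusted p = 0.014), lost with only the groups compared. Its response in *zmnlp3.1* did not differ from that in WT past the threshold (0.83, adjusted p = 0.25).

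Among the histidine kinases, 4 of 11 tested genes rose in *zmnlp3.1*, 1 in *zmnrt1.1b* and 4 in WT, against 6.88%, 6.81% and 6.43% of all genes, and 1 fell in *zmnrt1.1b* and WT. Without Zm00001d035846, which passed the minimum through WT under KNO3 alone, 3 of 10 rose in WT. In Arabidopsis and rice, kinases of this name include the cytokinin receptors as well as kinases with other inputs, and the description alone does not say which a maize gene is. The HK4 gene Zm00001d033786 (chromosome 1, 273671338 to 273678008) had 9.75, 8.71 and 10.3 FPKM under KNO3 and 8.54, 8.97 and 11.7 FPKM under KCl in *zmnlp3.1*. Roots of *zmnrt1.1b* had 13.9, 7.81 and 9.86 FPKM under KNO3 and 8.86, 7.23 and 7.96 FPKM under KCl. For WT the values were 20.1, 21.95 and 20.2 FPKM under KNO3 and 8.24, 10.3 and 8.86 FPKM under KCl. The WT KNO3 libraries lay above all others, and in the mutants the treatments overlapped. The response was -0.01 in *zmnlp3.1* (adjusted p = 0.97), 0.35 in *zmnrt1.1b* (adjusted p = 0.19) and 1.18 ± 0.18 (SE, adjusted p = 0.00026) in WT, and of the interactions that of *zmnlp3.1* was called (-1.19 ± 0.25 SE, adjusted p = 0.013). That of *zmnrt1.1b* was -0.83 (adjusted p = 0.1).

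The other HK4 gene, Zm00001d013412 (chromosome 5, 10600423 to 10608150), rose in all 3 genotypes. It had 6.52, 6.45 and 6.65 FPKM under KNO3 and 3.66, 3.89 and 5.22 FPKM under KCl in *zmnlp3.1*. For *zmnrt1.1b* the values were 8.98, 8.04 and 7.68 FPKM under KNO3 and 4.84, 4.22 and 4.796 FPKM under KCl. In WT it had 11.3, 11.8 and 8.43 FPKM under KNO3 and 3.38, 4.21 and 4.11 FPKM under KCl. No group of KNO3 libraries overlapped with its KCl libraries, and the rise was 0.63 ± 0.15 (SE, adjusted p = 0.014) in *zmnlp3.1*, 0.82 ± 0.15 (SE, adjusted p = 0.0028) in *zmnrt1.1b* and 1.4 ± 0.15 (SE, adjusted p = 1.6e-05) in WT. The rise in *zmnlp3.1* lost its call without *zmnlp3.1* KCl replicate 1, *zmnlp3.1* KCl replicate 3 or *zmnlp3.1* KNO3 replicate 4 and with only the groups compared. The interactions were not called (-0.77, adjusted p = 0.051, in *zmnlp3.1* and -0.58, adjusted p = 0.18, in *zmnrt1.1b*). The HK5 gene Zm00001d014297 (chromosome 5, 40021551 to 40049955) had 10.8, 7.27 and 8.97 FPKM in *zmnlp3.1*, 5.34, 4.95 and 5.78 FPKM in *zmnrt1.1b*, against 15.2, 15.8 and 11.3 FPKM in WT under KNO3. Its KCl values were 5.35, 5.57 and 4.73 FPKM in *zmnlp3.1*, 5.61, 4.65 and 5.51 FPKM in *zmnrt1.1b*, against 8.09, 9.04 and 8.34 FPKM in WT. It was lower than WT in both mutants and both treatments, and it rose in *zmnlp3.1* (0.76 ± 0.15 SE, adjusted p = 0.0046) and WT (0.71 ± 0.15 SE, adjusted p = 0.0053). Its response in *zmnrt1.1b* was 0.03 (adjusted p = 0.92), and its rise in *zmnlp3.1* lost the call with only the groups compared. The differences from WT were -0.64 ± 0.15 (SE, adjusted p = 0.0051) and -1.36 ± 0.15 (SE, adjusted p = 3.5e-05) under KNO3 and -0.69 ± 0.15 (SE, adjusted p = 0.0097) and -0.68 ± 0.15 (SE, adjusted p = 0.019) under KCl, *zmnlp3.1* before *zmnrt1.1b* in each pair. The last of these was lost without WT KCl replicate 2, WT KCl replicate 3 or *zmnrt1.1b* KCl replicate 3.

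No kinase described as HK1 or HK3 was called higher in the response of WT. The HK1 genes Zm00001d036704 and Zm00001d046928 rose in *zmnlp3.1*, by 0.66 ± 0.12 (SE, adjusted p = 0.0021) and 0.90 ± 0.16 (SE, adjusted p = 0.0017), and were not called in *zmnrt1.1b* (0.23 and 0.29) or WT (0.34 and 0.43), while none of their interactions was called. Yet for both HK1 genes every KNO3 library lay above every KCl library in each genotype, *zmnrt1.1b* and WT included. Their KNO3 levels were 19.99 ± 1.27 and 10.2 ± 1.15 FPKM in *zmnlp3.1*, and 15.6 ± 1.17 and 6.12 ± 0.716 FPKM in WT (SD, n = 3 each). The HK3 gene Zm00001d012005 (chromosome 8, 166369165 to 166375273), the highest of the kinases, was the one that fell, with 23.6, 21.5 and 16.2 FPKM under KNO3 and 29.4, 46.1 and 34.3 FPKM under KCl in WT. It fell with a log2 difference of -0.91 ± 0.16 (SE, adjusted p = 0.0016) in *zmnrt1.1b* and -0.83 ± 0.16 (SE, adjusted p = 0.0019) in WT, and in *zmnlp3.1* the difference was -0.43 (adjusted p = 0.076), with interactions of 0.40 in *zmnlp3.1* and -0.08 in *zmnrt1.1b* (adjusted p = 0.32 and 0.89). The other HK3 gene, Zm00001d042312, was lower than WT under KNO3 in *zmnlp3.1* with a log2 difference of -0.62 ± 0.13 (SE, adjusted p = 0.0022) and in *zmnrt1.1b* with a log2 difference of -0.66 ± 0.13 (SE, adjusted p = 0.0027). In WT that gene had 29.8, 31.5 and 25.85 FPKM under KNO3 and 18.98, 25.81 and 22.9 FPKM under KCl. These treatments did not overlap in WT and did in both mutants. Of 3 tested genes described as HK6, gene_Zm00001d051812 was higher than WT under KNO3 in *zmnlp3.1* by 0.65 ± 0.17 (SE, adjusted p = 0.0077) and in *zmnrt1.1b* by 0.70 ± 0.17 (SE, adjusted p = 0.009), and Zm00001d017977 was higher in *zmnlp3.1* by 0.40 ± 0.14 (SE, adjusted p = 0.041), a call lost in 7 of the 18 leave-one-out fits, with a minimum of 0.1 FPKM, with none and with only the groups compared.

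The HK2 gene Zm00001d035846 (chromosome 6, 55462393 to 55466921) was close to silent outside WT under KNO3. It had 0.231, 0.0651 and 0.136 FPKM in *zmnlp3.1*, 0.154, 0.0852 and 0.119 FPKM in *zmnrt1.1b*, against 1.75, 2.07 and 1.95 FPKM in WT under KNO3. KCl libraries had 0.0830, 0.0167 and 0 FPKM in *zmnlp3.1*, 0.0693, 0.0704 and 0.0353 FPKM in *zmnrt1.1b*, against 0.0818, 0.153 and 0.254 FPKM in WT. The WT response was 2.99 ± 0.61 (SE, adjusted p = 0.0034). It rests on 100, 119 and 111 reads in the WT libraries under KNO3 and 5, 9 and 15 reads in those under KCl. Since the gene passed the minimum through WT under KNO3 alone, its difference is a description. Its neighbour Zm00001d035845, described as the type-B regulator ORR22 and 757 bases away, stayed under the minimum, at 0.447 FPKM or less.

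**Figure D4:**
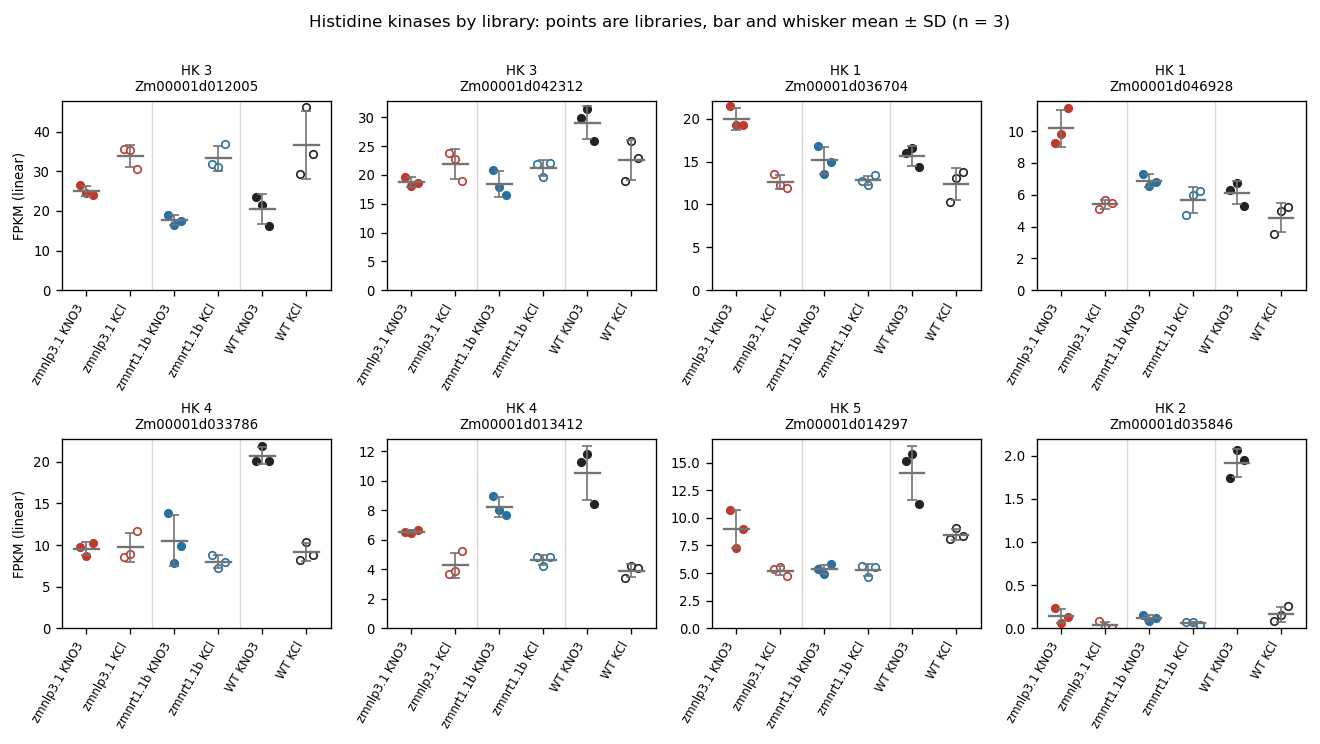
FPKM of 8 histidine kinases in each library (y axis, linear, 1 panel a gene). Filled points are KNO3 and open points KCl, groups run from *zmnlp3.1* to *zmnrt1.1b* to WT, and bars with whiskers are the mean ± SD of 3 libraries. The panel of HK2 shows 1.92 FPKM on average in WT under KNO3 and at most 0.254 FPKM in any other library, and that of Zm00001d013412 shows KNO3 above KCl in each genotype.

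No phosphotransfer protein was called in any of the 10 comparisons by limma or voom, and of these genes and comparisons a single one had an unadjusted p under 0.05. Only 4 of these genes were tested, and 6.43% of all genes were higher and 6.42% lower in the WT response. The HP2 gene gene_Zm00001d005344 (chromosome 2, 170204369 to 170207404) had 90.2, 77.3 and 88 FPKM under KNO3 and 86.7, 83.03 and 85.6 FPKM under KCl in *zmnlp3.1*, with KNO3 values of 86.7, 90.2 and 96.8 FPKM and KCl values of 99, 91.9 and 85.3 FPKM for *zmnrt1.1b*, and 85.95, 83.5 and 92.7 FPKM under KNO3 and 94.2, 84.6 and 85.3 FPKM under KCl for WT. The treatments overlapped in each genotype, and the 95% interval of the WT response was -0.21 to 0.19. None of the 7 tested type-B regulators was called in the response of WT by limma, where 1 had an unadjusted p under 0.05, or by voom, and the highest, the ORR24 gene gene_Zm00001d015521 (chromosome 5, 95621404 to 95625832), had 63.7, 68.2 and 61.4 FPKM under KNO3 and 58.6, 65.9 and 63.3 FPKM under KCl in WT. It was lower under KNO3 in *zmnrt1.1b* (-0.31 ± 0.10 SE, adjusted p = 0.043), a call lost in 12 of the 18 leave-one-out fits and with only the groups compared, and lower than WT under KNO3 in *zmnlp3.1* (-0.32 ± 0.10 SE, adjusted p = 0.02), a call lost without WT KNO3 replicate 1, WT KNO3 replicate 3 or *zmnlp3.1* KNO3 replicate 4, with voom and with only the groups compared. The ORR22 gene gene_Zm00001d045112 fell in *zmnlp3.1* with a log2 difference of -0.78 ± 0.21 (SE, adjusted p = 0.021), a call lost without any of 4 libraries, *zmnlp3.1* KCl replicates 1 and 3 and *zmnlp3.1* KNO3 replicates 2 and 4, and with only the groups compared. Under KCl the ORR26 gene Zm00001d012128 had 17.5, 22.3 and 28.2 FPKM in *zmnlp3.1*, against 13.2, 16.4 and 14.7 FPKM in WT, higher by 0.60 ± 0.18 (SE, adjusted p = 0.043), a call lost in 10 of the 18 leave-one-out fits, with no minimum and with only the groups compared. Voom called 2 type-B genes lower in the response of *zmnrt1.1b* and 1 in that of *zmnlp3.1*, and 2 higher in *zmnlp3.1* than in WT under KCl. Of all 26011 genes, voom called 2324, 2046 and 1486 in the same order, so few calls would be expected among 7 genes.

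The genotypes were furthest apart under KNO3. In *zmnlp3.1*, 23 of 59 members (39%) were lower than WT under KNO3 and 5 (8.47%) higher, against 16.7% and 14.7% of all genes. In *zmnrt1.1b*, 23 members (39%) were lower and 3 (5.08%) higher, against 9.66% and 7.9% of all genes. Without the 2 members that passed the minimum through WT under KNO3 alone, 21 of 57 (36.8%) were lower in each mutant, with 1 CKX gene and 1 histidine kinase fewer among them. By role, the lower genes in *zmnlp3.1* were 6 CKX, 5 histidine kinase, 4 LOG, 4 type-A, 2 O-glycosyltransferase, 1 hydroxylase and 1 type-B gene, and in *zmnrt1.1b* they were 7 CKX, 5 type-A, 4 LOG, 4 histidine kinase, 2 hydroxylase and 1 IPT gene. The higher genes in *zmnlp3.1* were 4 histidine kinases and 1 O-glycosyltransferase, and in *zmnrt1.1b* 2 O-glycosyltransferases and 1 histidine kinase. The median difference was -0.41 in both mutants, against 0.00 in *zmnlp3.1* and -0.03 in *zmnrt1.1b* over all genes. The lower members numbered 23 in *zmnlp3.1* and 21 in *zmnrt1.1b* without *zmnrt1.1b* KNO3 replicate 2, and 24 and 23 without *zmnlp3.1* KCl replicate 4. The count of higher members in *zmnlp3.1* was 3 without WT KNO3 replicate 1, WT KNO3 replicate 4, *zmnlp3.1* KNO3 replicate 2 or *zmnlp3.1* KNO3 replicate 4. Both comparisons share the WT libraries. In the same libraries the Casparian strip genes summed to 40.3 to 57.6 FPKM in *zmnlp3.1*, 19.8 to 43.8 FPKM in *zmnrt1.1b* and 52.5 to 85.1 FPKM in WT, and their part in these differences was not tested.

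Under KCl fewer members differed. In *zmnlp3.1*, 9 members (15.3%) were lower than WT and 3 (5.08%) higher, against 6.81% and 2.58% of all genes, and 8 of 57 were lower without that pair of members. In *zmnrt1.1b*, 4 members (6.78%) were lower and 2 (3.39%) higher, against 1.85% and 2.06% of all genes. These counts moved with single libraries. In *zmnlp3.1* the lower members numbered 4 without WT KCl replicate 1, WT KCl replicate 2 or *zmnlp3.1* KCl replicate 4, 5 without WT KCl replicate 3, WT KNO3 replicate 1 or WT KNO3 replicate 3, and 2 with only the groups compared in the fit. In *zmnrt1.1b* there were no lower members without WT KCl replicate 2 or WT KCl replicate 3, 1 without WT KCl replicate 1 or *zmnrt1.1b* KCl replicate 3, 2 without WT KNO3 replicate 1, *zmnrt1.1b* KCl replicate 2 or 4 or *zmnlp3.1* KNO3 replicate 4, and 7 without *zmnrt1.1b* KNO3 replicate 2 or *zmnlp3.1* KCl replicate 4. The higher members under KCl numbered 1 in 9 of the fits for *zmnlp3.1* and in 4 of those for *zmnrt1.1b*, in each case the fits without a *zmnrt1.1b* KCl library or without WT KCl replicate 1, and for *zmnlp3.1* also those without the other WT KCl libraries, *zmnlp3.1* KCl replicate 3 or 4 or *zmnlp3.1* KNO3 replicate 4.

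**Figure D5:**
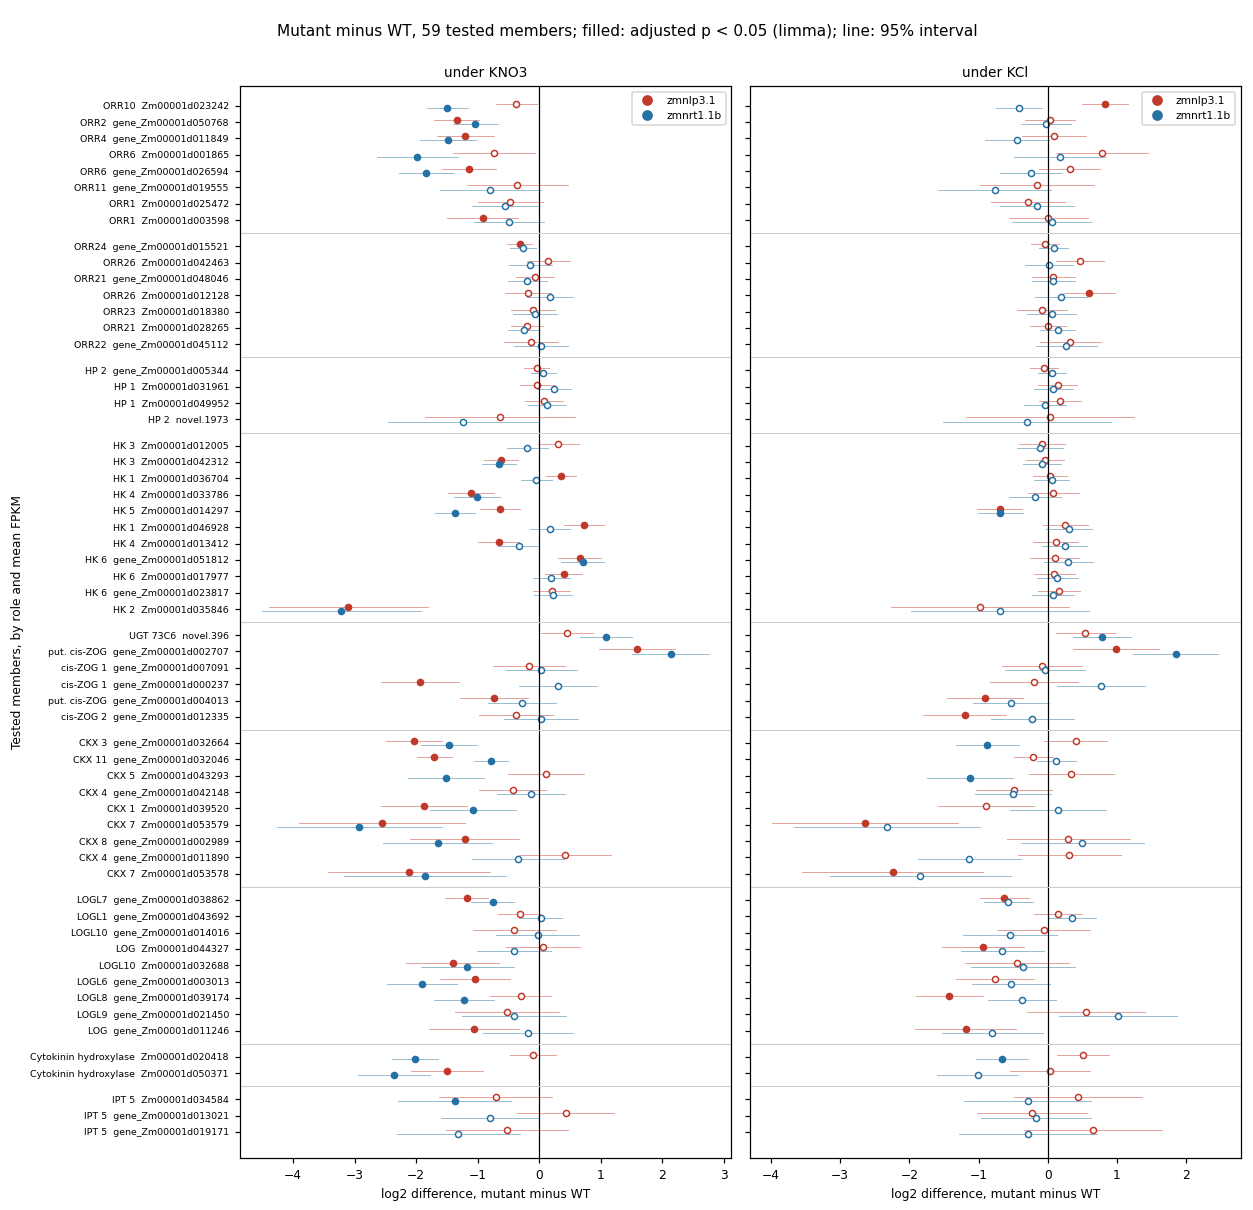
Difference between each mutant and WT for the 59 tested members, under KNO3 (left) and KCl (right). Rows are genes grouped by role, the x axis is the log2 difference mutant minus WT, points are *zmnlp3.1* and *zmnrt1.1b*, lines are 95% intervals, and filled points have an adjusted p under 0.05. Under KNO3 each mutant has 23 filled points below 0, and under KCl *zmnlp3.1* has 9 and *zmnrt1.1b* 4.

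Genes next to the pathway were taken from a list of 56 genes by description, namely purine permeases and equilibrative transporters (which carry adenine compounds, cytokinins among them), tRNA dimethylallyl-transferase (the source of cis-zeatin), adenine phosphoribosyltransferases, cytokinin response factors (CRF), glycosyltransferases of the 73C, 76C and 85A groups and the ABC transporter G family member 14. Of 38 tested, none was higher and 11 were lower under KNO3 in *zmnlp3.1*, none was higher and 5 lower in *zmnrt1.1b*, and 3 were higher and 6 lower in WT, against 6.88% and 7.14%, 6.81% and 8.35%, and 6.43% and 6.42% of all genes in the same order. Voom also called none higher in either mutant, against 1710 in *zmnlp3.1* and 1712 in *zmnrt1.1b* of all 26011 genes. By limma an unadjusted p under 0.05 in either direction was found for 14 of the 38 genes in *zmnlp3.1* and 17 in *zmnrt1.1b*. Against WT under KNO3, 4 were higher and 12 lower in *zmnlp3.1* and 8 were higher and 5 lower in *zmnrt1.1b*, with 5 purine permeases of 12 tested among the genes higher in *zmnrt1.1b*, against 4 among those higher in *zmnlp3.1*. By limma the shares of all genes were 14.7% higher and 16.7% lower in *zmnlp3.1* and 7.9% and 9.66% in *zmnrt1.1b*. Voom called 4 of the 38 higher and 9 lower in *zmnlp3.1* and 12 and 5 in *zmnrt1.1b*. Of all 26011 genes, voom called 5809 higher and 3248 lower in *zmnlp3.1* and 2766 and 2040 in *zmnrt1.1b*. The purine permease Zm00001d027978 fell in WT with a log2 difference of -3.00 ± 0.36 (SE, adjusted p = 3.9e-05) and was higher than WT under KNO3 in *zmnlp3.1* by 3.01 ± 0.36 (SE, adjusted p = 3e-05) and in *zmnrt1.1b* by 3.26 ± 0.36 (SE, adjusted p = 3.2e-05). The tRNA dimethylallyl-transferase Zm00001d041982 rose in WT by 0.63 ± 0.19 (SE, adjusted p = 0.036, not called by voom) and its response in *zmnlp3.1* was smaller with a log2 difference of -1.2 ± 0.27 (SE, adjusted p = 0.018). The 85A glycosyltransferase gene_Zm00001d037207 rose in WT by 1.11 ± 0.13 (SE, adjusted p = 3.6e-05) and responded less in *zmnlp3.1* (-1.28 ± 0.19 SE, adjusted p = 0.002) and in *zmnrt1.1b* (-0.93 ± 0.19 SE, adjusted p = 0.024), and no CRF gene of 4 tested was called in the response of WT, where none had an unadjusted p under 0.05 and voom called none.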

How the data were processed

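RNA from maize roots of 18 samples was sequenced as 150 bp paired reads from poly-A libraries. Per the submitters' processing notes, fastp, HISAT2 2.0.5 and StringTie 1.3.3b were used, with the B73 genome (release 4). The authors deposited FPKM values per gene. The read counter and the scaling are not given in the sources used here. FPKM times gene length gave whole reads (100% of values within 0.05), and the FPKM denominators were 0.925 to 1.109 of the recovered reads, 16955904 to 19116969 per library.

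Samples were grouped by their labels. Members were found by protein description, and the members and gene lists were chosen with earlier results of these data known. Genes with at least 1 FPKM in 3 libraries were fitted with limma 3.58.1 (R 4.3.3, trend) on log2(FPKM + 0.1), as 6 group means with 10 contrasts and Benjamini-Hochberg adjustment over all 26011 genes tested. The steps were tested on data simulated for the WT response. Of 100 genes changed 2-fold, 62 were recovered, and of 100 changed 4-fold, 79, with 8 false calls, so changes of this size can go uncalled. Other settings were a 1 FPKM pseudocount, a minimum lowered to 0.1 FPKM or dropped, rescaled libraries, voom on recovered reads, only the groups compared, a replicate block and leaving out each library. The series states biological replicates. Whether a library is a plant or a pool is not stated, and p-values measure the spread between these libraries. The 35 members named by rule were those called with a log2 difference over 1 in a contrast or called in an interaction, the highest of each role and the smallest interaction p of each role. Others were named after their values were seen. Sequences and columns of gene annotation other than descriptions and coordinates were not used.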

Additional observations from a re-analysis of the deposited data

Results flagged for a closer look

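Each result here was singled out because the response to NO3-, KNO3 minus KCl on the log2(FPKM + 0.1) scale, differed between genotypes by the interaction test of limma at an adjusted p under 0.05. Explanations were not weighed.

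Against WT, the response in *zmnlp3.1* was smaller for 9 members. These were the type-A regulators Zm00001d023242 (-1.2), gene_Zm00001d050768 (-1.37), gene_Zm00001d011849 (-1.29) and gene_Zm00001d026594 (-1.46), the dehydrogenases gene_Zm00001d032664 (-2.44) and gene_Zm00001d032046 (-1.50), the HK4 gene Zm00001d033786 (-1.19), the hydroxylase Zm00001d050371 (-1.53) and the cis-zeatin O-glucosyltransferase gene_Zm00001d000237 (-1.74). Of these, the CKX3 gene gene_Zm00001d032664 had the largest difference, and it and gene_Zm00001d032046 had a called fall in *zmnlp3.1* and a called rise in WT.

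Against WT, the response in *zmnrt1.1b* was smaller for 6 members, namely the type-A regulators Zm00001d023242 (-1.07), gene_Zm00001d050768 (-1.02), Zm00001d001865 (-2.15) and gene_Zm00001d026594 (-1.59), the hydroxylase Zm00001d020418 (-1.36) and the dehydrogenase gene_Zm00001d032046 (-0.91). Between the mutants, the response in *zmnlp3.1* minus that in *zmnrt1.1b* was -1.84 for the CKX3 gene gene_Zm00001d032664 and 1.97 for the LOGL8 gene gene_Zm00001d039174. The CKX3 gene had a called rise in *zmnrt1.1b* and a called fall in *zmnlp3.1*, and the LOGL8 gene a called fall in *zmnrt1.1b* and a value of 0.51 in *zmnlp3.1* that was not called.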

How the results depend on the processing

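No called difference of a named member changed sign under any alternative, and sign changes of uncalled values were not scored. Over the named members, 8290 values stayed on their side of the threshold, 277 lost a call and 93 gained one. The 8290 include values that were called neither in the main fit nor in the alternative. Counts of members moved as follows. The members lower in the WT response numbered 4 with voom and 4 with only the groups compared, and those in *zmnlp3.1* were 2 higher and 2 lower with only the groups compared. Under KCl, *zmnrt1.1b* had 1 higher and 2 lower members with no minimum and 1 higher with only the groups compared, and *zmnlp3.1* had 1 higher with no minimum, 5 higher with voom, and 1 higher and 2 lower with only the groups compared. The larger responses in *zmnlp3.1* than in WT numbered 1 with a pseudocount of 1 FPKM and 1 with the replicate block.

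Leaving out each library in turn gave 13 to 17 higher and 1 to 3 lower members in the WT response, 2 to 3 and 2 to 6 in *zmnrt1.1b*, and 4 to 7 and 2 to 7 in *zmnlp3.1*. Against WT under KCl it gave 1 to 3 higher and 0 to 7 lower in *zmnrt1.1b* and 1 to 3 and 4 to 9 in *zmnlp3.1*, and under KNO3 3 higher and 18 to 23 lower in *zmnrt1.1b* and 3 to 6 and 17 to 24 in *zmnlp3.1*. For the responses compared between genotypes it gave 0 larger and 1 to 8 smaller in *zmnrt1.1b* than WT, 0 to 1 and 6 to 12 in *zmnlp3.1* than WT, and 1 to 2 larger and 1 smaller in *zmnlp3.1* than *zmnrt1.1b*. The cause of these shifts was not tested.

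Replicate numbers were not taken as pairs in the main fit. Deviations of same-numbered libraries correlated at -0.07 to 0.27, and those of differently numbered ones at -0.23 to 0.16. These ranges overlap and cannot settle whether the numbers mark pairs. With the replicate block, the members whose response in *zmnlp3.1* differed from WT numbered 14, against 9 without it. Depth limits the weakly expressed members most, as with the 7 to 33 reads a library of gene_Zm00001d012335.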
